A study of Mus musculus with 4 samples.

Results

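Microglia and macrophages were followed in primary astrocyte cultures through a list of 52 genes that mark these cells or serve their functions. The genes were matched by their exact symbol to the 25393 genes of the deposited RNA-seq table. The table held 51 of them, and the expression of the remaining one, Siglech, a lectin of microglia, is not analysed here. The astrocytes came from cortex and hippocampus of untreated C57BL/6 pups at postnatal day 1, either wild type (WT, 2 libraries) or with a constitutive knockout of Tet1 (genotype tet1-/-, 2 libraries labelled KO). Tet1 encodes an enzyme that oxidizes 5-methylcytosine to 5-hydroxymethylcytosine. For each isolation 2 mice were used, the cells grew for about 7 days in a flask coated with poly-D-lysine, were shaken at 260 rpm and were kept for a further 24 h before RNA was taken. A constitutive knockout is not limited to astrocytes, so the label applies to any microglia in those cultures as well. The labels do not say whether the libraries of a genotype came from separate isolations, so p-values measure only the spread between these libraries, which may be technical.

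Microglia are the resident macrophages of the brain. They depend on the receptor CSF1R, which binds CSF1 and IL34, and their identity is set by transcription factors such as PU.1, encoded by Spi1. Mixed glial cultures from newborn brain contain them beside the astrocytes, and shaking detaches them from the astrocyte layer. On their surface, receptors without signalling parts of their own, such as TREM2 and the activating Fc receptors, pair with the adaptors DAP12 (Tyrobp) and the FcR gamma chain (Fcer1g), whose ITAM motifs recruit kinases of the Src and Syk families.

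The deposited values, called normalized counts here, are reads per gene scaled by a size factor for each library. The reads on genes numbered 18749610 to 22673555 per library, and 3 reads, taken as the detection floor, correspond to 2.70 to 3.21 normalized counts. The targeted gene, Tet1, had 266 and 121 normalized counts in WT against 173 and 463 under the KO label. Tet1 was therefore not lower under the KO label, and "labelled KO" is used throughout. Xist, which is transcribed from the inactive X chromosome of female cells, had 8.54 and 0.92 normalized counts in WT against 2896 and 13367 under the KO label, so a difference in sex and a difference in genotype cannot be told apart. The library labelled KO replicate 2 stood apart in the astrocyte marker Gfap (9945 normalized counts, against 58004 to 174853 in the other libraries). The labels name no batch.

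Most members were lower in both libraries labelled KO than in WT. Their levels in WT ranged widely, with 31 of the 51 above the median of all genes by FPKM, a measure of reads per gene length and depth, and 3 at or under 3 reads in both WT libraries. Of the 51 members in the table, 47 had each library labelled KO lower than either WT library. Of the 22094 genes that averaged 1 normalized count or more, which were tested, 25.4% did so. In such bulk libraries, fewer cells of a type and less RNA per cell cannot be told apart. Among the 49 members that passed this filter the number was 45, with 3 (Sall1, Lyn and Gpr34) above both WT libraries, against 22.5% of all tested genes, and 1 (Tmem119) overlapping. P2ry13 and Itgax did not pass the filter, 4 of the 49 had a mean under 1 in the libraries labelled KO and passed through WT alone, and Gpr34 passed through the libraries labelled KO alone. By limma with Benjamini-Hochberg adjustment over all tested genes, 0 members and 0 genes (0%) reached an adjusted p under 0.05, and edgeR's quasi-likelihood test on the recovered reads gave 0 as well. At an unadjusted p under 0.05 in limma, 37 members were lower, against 9.18% of all tested genes, and 1 (Lyn) was higher, against 4.54%, or 13.7% in either direction. The number of lower members at this threshold was 11 without WT replicate 2, 24 without labelled KO replicate 1 and 25 without WT replicate 1. DESeq2, run on the same reads as an alternative, called 34 members lower at an adjusted p under 0.05, against 3.63% of all tested genes, and none higher, against 1.29%. edgeR had 38 members lower at an unadjusted p under 0.05, against 8.14%. The counts for groups of members below follow those of the whole list and are to be read beside these shares. The median log2 fold change of the 49 members, labelled KO minus WT on the log2(normalized count + 1) scale, was -3.38, beside -0.07 over all tested genes. It was -2.59 without WT replicate 2, -2.90 without labelled KO replicate 1 and -3.99 without WT replicate 1.

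**Figure D1:**
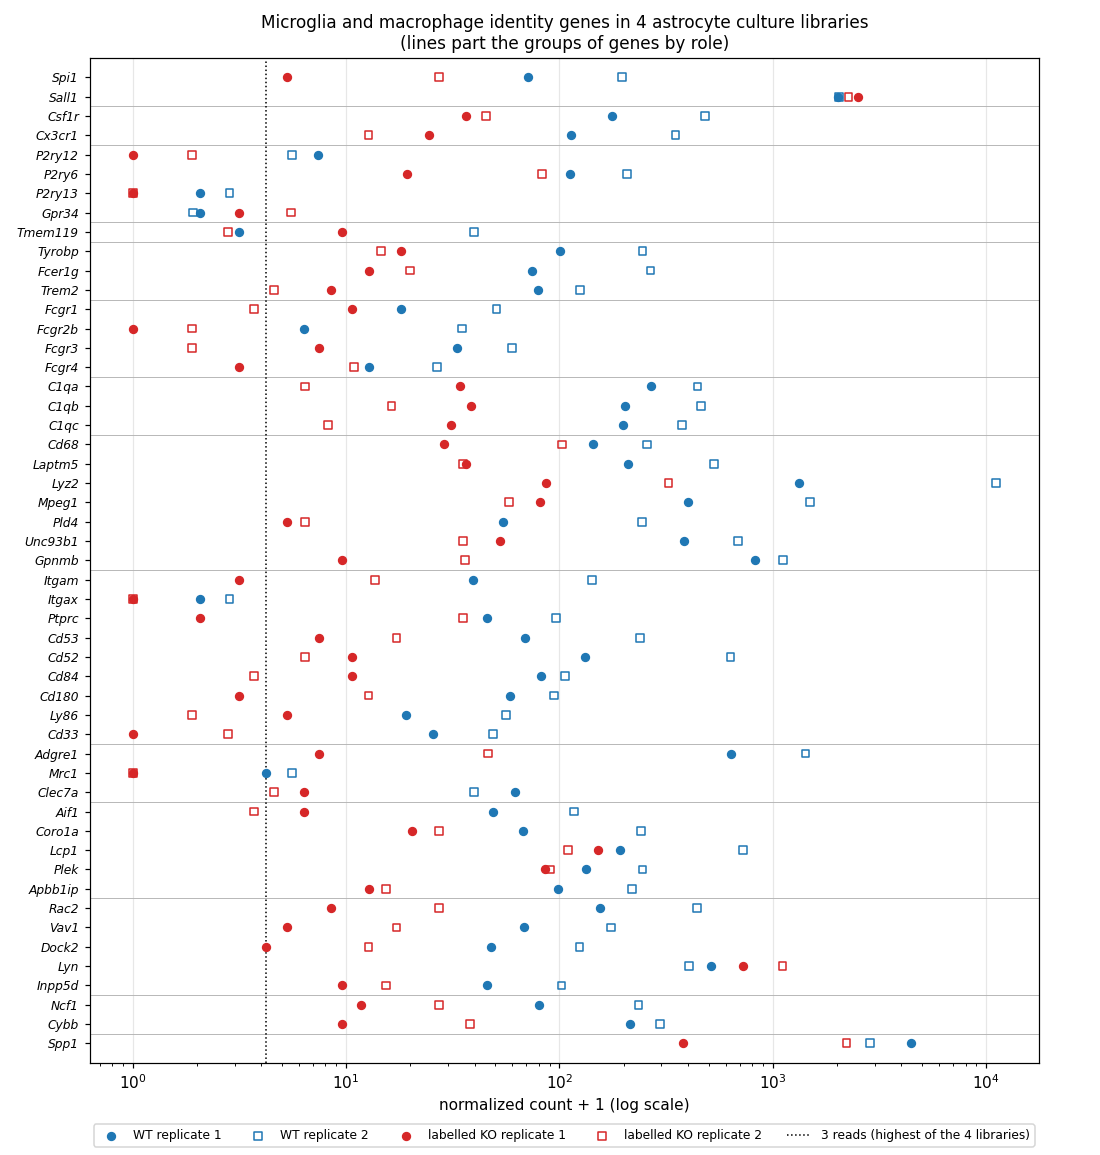
Normalized counts plus 1 (x axis, log scale) of the 51 members in the table (y axis, grouped by role) in each of the 4 libraries. Filled circles are replicate 1 and open squares replicate 2, WT in blue and labelled KO in red, and the dotted line marks 3 reads. For most genes both red points lie to the left of both blue points, while Sall1, Lyn and Gpr34 show the reverse order.

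The 2 lineage transcription factors showed opposite orders of the labels. Spi1 (ENSMUSG00000002111, chr2:91082390-91115756 on the mm10 genome) had 70.4 and 196 normalized counts in WT against 4.28 and 26.1 under the KO label. The labels did not overlap, with a mean at 11.4% of WT and a log2 fold change of -3.31 (SE 1.01, limma adjusted p = 0.284). Sall1, a zinc-finger repressor that marks microglia among macrophages but is also made by neural progenitors, had 2018 and 2033 normalized counts in WT against 2512 and 2261 under the KO label. Its WT libraries were the closest of any member, with a ratio of 1.01, and its log2 fold change was 0.23 (SE 0.27, limma adjusted p = 0.734). Per gene length, Sall1 stood at 18.8 ± 0.449 FPKM (SD, n = 2) in WT and Spi1 at 2.4 ± 1.54 FPKM (SD, n = 2). Sall1 was thus the more abundant of the pair in both WT libraries.

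The receptor for CSF1 and IL34, Csf1r, had 175 and 478 normalized counts in WT against 35.3 and 44.2 under the KO label. All 4 libraries were well above the floor and the labels did not overlap, with 327 ± 214 against 39.7 ± 6.25 normalized counts (SD, n = 2 each) and a log2 fold change of -2.84 (SE 0.61, limma adjusted p = 0.195). Cx3cr1, the fractalkine receptor, had 112 and 349 normalized counts in WT against 23.5 and 11.7 under the KO label. In it replicate 2 was the higher WT library and the lower library labelled KO, and the log2 fold change was -3.49 (SE 0.75, limma adjusted p = 0.195). The annotated span of Cx3cr1 overlaps 9 other genes, 6 of them antisense, and without a stated strand setting their reads could not be separated. DESeq2 called both receptors lower.

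Of the purine and lipid receptors of microglia, all but P2ry6 were at or near the floor. P2ry12, the ADP receptor that guides microglial processes to injury, had 6.4 and 4.6 normalized counts in WT against 0 and 0.901 under the KO label. P2ry13, a second ADP receptor, had 1.07 and 1.84 normalized counts in WT against 0 and 0 under the KO label, at or under 3 reads in every library. Gpr34, a receptor for lysophosphatidylserine, had 1.07 and 0.92 normalized counts in WT against 2.14 and 4.51 under the KO label. These are at most 5 reads per library, so its higher level under the KO label, with a log2 fold change of 1.06 (SE 0.77, limma adjusted p = 0.585), rests on few reads, and the gene lies antisense within Cask. P2ry6, a UDP receptor linked to phagocytosis, had more reads than these, with 111 and 207 normalized counts in WT against 18.2 and 82 under the KO label. Its log2 fold change was -1.93 (SE 0.83, limma adjusted p = 0.393), and replicate 2 of the libraries labelled KO came close to WT replicate 1. Tmem119, a surface protein used to tell microglia from other macrophages, had 2.13 and 38.6 normalized counts in WT against 8.56 and 1.8 under the KO label. Only WT replicate 2 held more than 10 normalized counts, so that the log2 fold change of -1.11 became 0.72 without that library. Per gene length, P2ry12 stood at 0.106 ± 0.0276 FPKM (SD, n = 2) and Tmem119 at 0.423 ± 0.533 FPKM (SD, n = 2) in WT. In each WT library both were lower than Csf1r, at 3.24 ± 2.05 FPKM (SD, n = 2), and Cx3cr1, at 2.48 ± 1.74 FPKM (SD, n = 2).

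The adaptors and their partner were lower together. Tyrobp had 99.2 and 244 normalized counts in WT against 17.1 and 13.5 under the KO label, and its log2 fold change was -3.27 (SE 0.65, limma adjusted p = 0.175). Fcer1g had 73.6 and 266 normalized counts in WT against 11.8 and 18.9 under the KO label, and Trem2, the lipid receptor that signals through DAP12, had 77.9 and 124 normalized counts in WT against 7.49 and 3.61 under the KO label. All 3 were lower without overlap and called lower by DESeq2, beside 25.4% and 3.63% of all tested genes. Their means in the libraries labelled KO were 8.94%, 9.05% and 5.49% of WT. Per gene length the adaptors were more abundant than the receptor in WT, with 12.5 ± 7.13 FPKM (SD, n = 2) for Tyrobp, 9.4 ± 7.33 FPKM (SD, n = 2) for Fcer1g and 0.996 ± 0.295 FPKM (SD, n = 2) for Trem2. This rests on deposited gene lengths of 667, 874 and 4946 bases. By reads Trem2 was not below Fcer1g in WT replicate 1, with 73 against 69. The log2 fold change of Trem2 was -3.99 (SE 0.68, limma adjusted p = 0.15).

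Among the Fc gamma receptors, which bind IgG, all 4 genes were lower without overlap, though from low levels. Over all tested genes this share was 25.4%. Fcgr3, a low-affinity activating receptor, had 32 and 58.9 normalized counts in WT against 6.42 and 0.901 under the KO label. Fcgr1, the high-affinity receptor, had 17.1 and 49.7 normalized counts in WT against 9.63 and 2.7 under the KO label. Fcgr2b, the inhibitory receptor, had 5.33 and 34 normalized counts in WT against 0 and 0.901 under the KO label, which is 0 and 1 read in the latter. Fcgr4, another activating receptor, had 11.7 and 25.7 normalized counts in WT against 2.14 and 9.91 under the KO label and kept the largest share of its WT mean, 32.2%. DESeq2 called 1 of the 4, Fcgr3, whose limma log2 fold change was -3.56 (SE 0.93, limma adjusted p = 0.241). Fcgr2b and Fcgr3 are close copies of each other in their extracellular part, so reads could have been split between them.

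The 3 chains of C1q, the recognition protein of the classical complement pathway, lie next to each other on chromosome 4 (chr4:136880129-136886187 for C1qb, chr4:136889804-136893065 for C1qc and chr4:136895917-136898803 for C1qa, all on the minus strand). C1qa had 268 and 442 normalized counts in WT against 33.2 and 5.41 under the KO label. C1qb had 202 and 459.8 normalized counts in WT against 37.5 and 15.3 under the KO label, and C1qc had 198 and 375 normalized counts in WT against 30.0 and 7.21 under the KO label. For each chain the order was the same, with WT replicate 2 highest, then WT replicate 1, labelled KO replicate 1 and labelled KO replicate 2. The log2 fold changes were -4.54 (SE 0.90, limma adjusted p = 0.175) for C1qa, -3.61 for C1qb and -4.10 for C1qc, and DESeq2 called all 3 lower. Per gene length, C1qa and C1qb were at 16.6 ± 5.32 FPKM (SD, n = 2) and 14.8 ± 7.78 FPKM (SD, n = 2) in WT, and C1qc at 7.23 ± 2.96 FPKM (SD, n = 2). The first pair did not differ beyond the spread between the WT libraries, and C1qc was the lowest in each of them. This order rests on deposited gene lengths of 1931 bases for C1qc, 1040 for C1qa and 1088 for C1qb. By reads C1qc was close to C1qb in WT replicate 1, with 186 against 189.

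The lysosomal and phagocytic members included some of those with the largest differences. Lyz2, the lysozyme of myeloid cells, had 1319.8 and 11115 normalized counts in WT against 85.6 and 324 under the KO label. Per length it stood at 228 ± 251 FPKM (SD, n = 2) in WT, above all other members in WT replicate 2 (405 FPKM) but below Spp1 in WT replicate 1 (50.1 against 135 FPKM). Its WT libraries differed by a ratio of 8.42, more than those of any other tested member but Tmem119, and the mean in the libraries labelled KO was 3.29% of WT. Lyz2 has a near-identical neighbour, Lyz1, so its count is uncertain to that extent. Gpnmb, a glycoprotein of lysosome-rich macrophages (chr6:49036546-49070929), had 827 and 1111 normalized counts in WT against 8.56 and 35.2 under the KO label. Its WT libraries were close, the libraries labelled KO held 2.26% of the WT mean, and its log2 fold change of -5.69 (SE 0.72, limma adjusted p = 0.104) came with the lowest adjusted p of the members. Mpeg1, the pore-forming protein perforin-2, had 398 and 1487 normalized counts in WT against 80.3 and 56.8 under the KO label, and Laptm5, a lysosomal membrane protein of blood cells, had 209 and 529 normalized counts in WT against 35.3 and 34.3 under the KO label. Pld4, an endolysosomal exonuclease, had 53.3 and 242 normalized counts in WT against 4.28 and 5.41 under the KO label, and Unc93b1, which carries Toll-like receptors to endosomes, had 383 and 684 normalized counts in WT against 51.4 and 34.3 under the KO label. Cd68 differed less, with 142 and 256 normalized counts in WT against 27.8 and 102 under the KO label and a log2 fold change of -1.81 (SE 0.75, limma adjusted p = 0.377). All 7 genes of the group were lower without overlap, beside 45 of the 49 tested members and 25.4% of all tested genes. DESeq2 called 6 lower, Cd68 being the exception, beside 34 of the members and 3.63% of all tested genes.

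The integrins and other leukocyte surface proteins were lower without overlap, down to a few reads in many cases. Itgam (CD11b) had 38.4 and 142 normalized counts in WT against 2.14 and 12.6 under the KO label. Itgax (CD11c), in contrast, had 1.07 and 1.84 normalized counts in WT against 0 and 0 under the KO label, at or under the floor in all libraries. Ptprc (CD45), a tyrosine phosphatase of all white blood cells, had 44.8 and 95.6 normalized counts in WT against 1.07 and 34.3 under the KO label. On the log2(normalized count + 1) scale it had the widest gap of all tested members between the libraries labelled KO, which held 1 and 38 reads, and its log2 fold change was -2.96 (SE 1.42, limma adjusted p = 0.434). Cd52, a small GPI-anchored glycoprotein, had 131 and 632 normalized counts in WT against 9.63 and 5.41 under the KO label, with a mean in the libraries labelled KO at 1.97% of WT and a log2 fold change of -5.13 (SE 0.89, limma adjusted p = 0.15). The tetraspanin Cd53 had 68.3 and 238 normalized counts in WT against 6.42 and 16.2 under the KO label, and Cd84, a homophilic receptor, had 81.1 and 105 normalized counts in WT against 9.63 and 2.7 under the KO label. Cd180, a relative of the Toll-like receptors, had 57.6 and 92.9 normalized counts in WT against 2.14 and 11.7 under the KO label. Its partner Ly86 (MD-1) had 18.1 and 55.2 normalized counts in WT against 4.28 and 0.901 under the KO label. Cd33, a lectin for sialic acid, had 24.5 and 47.8 normalized counts in WT against 0 and 1.8 under the KO label, none above 2 reads in the latter. All 8 tested genes of the group were lower without overlap, beside 25.4% of all tested genes. DESeq2 called 7 lower, all but Ptprc, beside 3.63% of all tested genes.

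Of the receptors used to type macrophages, Adgre1 (F4/80) stood with Gpnmb as one of the largest differences of the list. Adgre1 (chr17:57358691-57483527) had 637 and 1423 normalized counts in WT against 6.42 and 45.1 under the KO label, or 1029.8 ± 555 against 25.7 ± 27.3 normalized counts (SD, n = 2 each). Its log2 fold change was -5.69 (SE 0.96, limma adjusted p = 0.148). Mrc1 (CD206), which marks macrophages of the brain's borders, had 3.2 and 4.6 normalized counts in WT against 0 and 0 under the KO label. Its WT libraries held 3 and 5 reads, so WT replicate 1 was itself at the floor. The WT mean was 1.32-fold the mean floor of the libraries labelled KO, and the difference rests on few reads. Clec7a (Dectin-1), which the table classes as a polymorphic pseudogene, had 60.8 and 38.6 normalized counts in WT against 5.35 and 3.61 under the KO label, and it was one of the few members with WT replicate 1 above replicate 2.

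The actin regulators differed in how far apart the labels were. Aif1, which encodes the microglial stain IBA1, had 48 and 116 normalized counts in WT against 5.35 and 2.7 under the KO label, a mean in the libraries labelled KO at 4.92% of WT, and a log2 fold change of -3.96 (SE 0.77, limma adjusted p = 0.171). Apbb1ip, an adaptor for integrin activation, had 97.1 and 218 normalized counts in WT against 11.8 and 14.4 under the KO label, and Coro1a, coronin of white blood cells, had 66.2 and 240.0 normalized counts in WT against 19.3 and 26.1 under the KO label. Lcp1, the actin bundler L-plastin, had 191 and 721 normalized counts in WT against 149.9 and 108 under the KO label, and Plek, the platelet and macrophage protein pleckstrin, had 132 and 244 normalized counts in WT against 84.6 and 89.2 under the KO label. The last pair kept 28.3% and 46.2% of the WT mean, were not called by DESeq2, and had log2 fold changes of -1.54 for Lcp1 and -1.04 (SE 0.48, limma adjusted p = 0.424) for Plek. Lcp1 and Plek each overlap 2 antisense genes.

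Signalling proteins inside the cell divided into Lyn and the rest. The small GTPase Rac2 had 154 and 441 normalized counts in WT against 7.49 and 26.1 under the KO label, and its log2 fold change was -4.11. Vav1 and Dock2 are exchange factors that activate Rac. Vav1 had 67.2 and 174 normalized counts in WT against 4.28 and 16.2 under the KO label, and Dock2 had 46.9 and 123 normalized counts in WT against 3.21 and 11.7 under the KO label. The phosphatase SHIP1, encoded by Inpp5d, had 44.8 and 101 normalized counts in WT against 8.56 and 14.4 under the KO label. These 4 were lower without overlap and called lower by DESeq2, beside 25.4% and 3.63% of all tested genes. The log2 fold changes were -3.52 for Vav1, -3.40 for Dock2 and -2.49 for Inpp5d. Lyn, a Src-family kinase found beyond blood cells, had 513 and 404 normalized counts in WT against 724 and 1109.5 under the KO label. Each library labelled KO was higher than either WT library, with 458 ± 77.4 against 917 ± 273 normalized counts (SD, n = 2 each) and a log2 fold change of 0.98 (SE 0.36, limma adjusted p = 0.348), and the unadjusted limma p of Lyn was 0.0391. Lyn overlaps 4 antisense genes. Ncf1 and Cybb are subunits of the NADPH oxidase, which makes superoxide in phagocytes. Ncf1, which overlaps Gtf2ird2 on the other strand, had 79 and 234 normalized counts in WT against 10.7 and 26.1 under the KO label. Cybb had 213 and 295 normalized counts in WT against 8.56 and 37 under the KO label. Both were without overlap and called lower by DESeq2. Cybb lies on the X chromosome (chrX:9435252-9487771), and the log2 fold change was -3.73 (SE 0.78, limma adjusted p = 0.189).

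Spp1 (osteopontin), a secreted phosphoprotein made by many cell types, had 4451 and 2846 normalized counts in WT against 378 and 2213 under the KO label. Replicate 2 of the libraries labelled KO came near WT replicate 2, and the log2 fold change of -1.96 (SE 0.84, limma adjusted p = 0.393) was among the smaller ones. Per length Spp1 stood at 109 ± 36.9 FPKM (SD, n = 2) in WT, and its order with Lyz2 turned between the WT libraries.

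**Figure D2:**
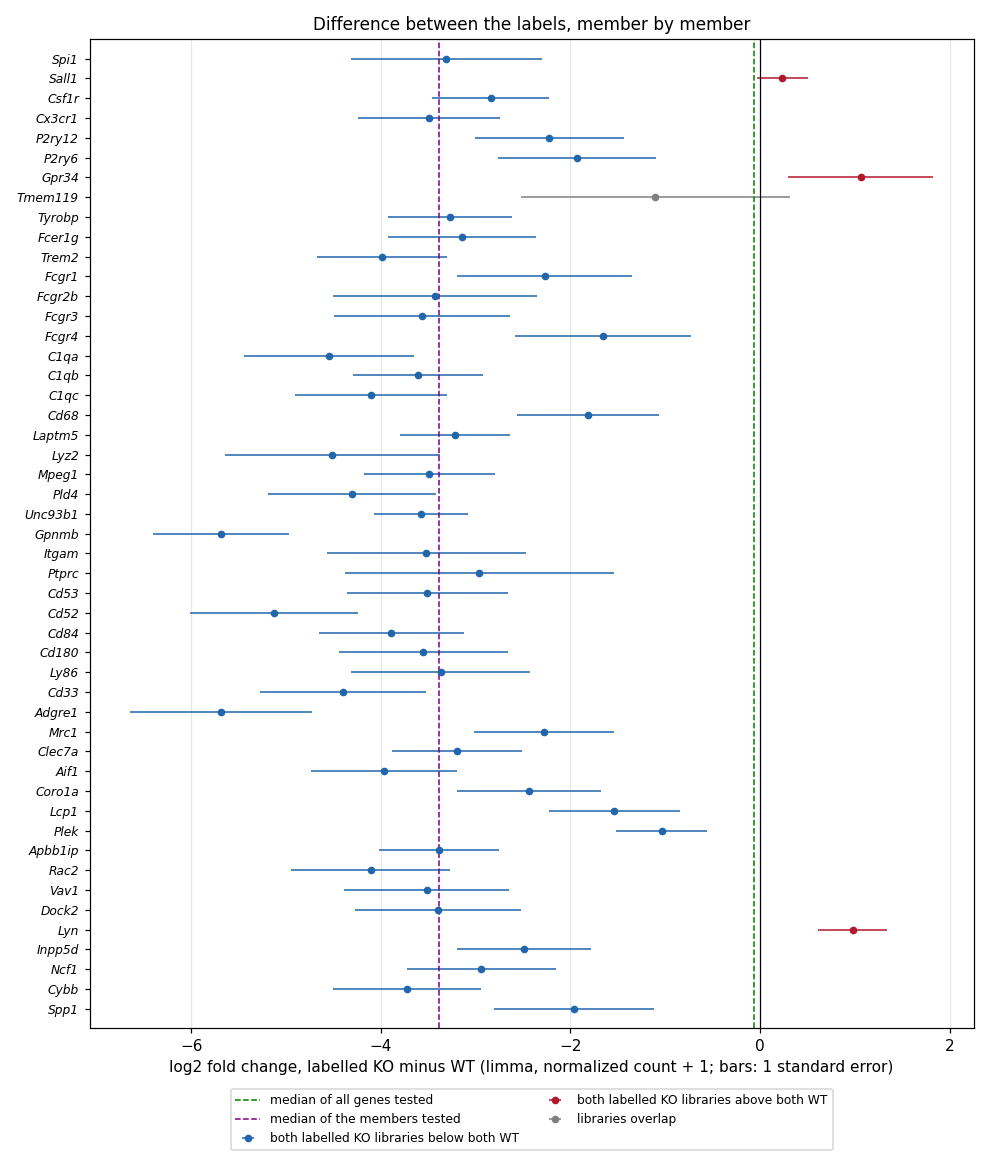
Log2 fold change (x axis, labelled KO minus WT, limma on normalized count + 1) of the 49 tested members (y axis), with bars of 1 standard error. Blue marks genes with each library labelled KO lower than either WT library, red the reverse and gray overlap. Most members lie near the purple line at their median of -3.38, away from the green line at -0.07 for all tested genes, while Sall1, Gpr34 and Lyn lie to the right of 0.

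By the share of the WT mean that was left in the libraries labelled KO, the members without overlap covered a wide range. The share was under 10% for 32 of the 45 and under 20% for 38. The 7 members at 20% or more were P2ry6, Fcgr4, Cd68, Ptprc, Lcp1, Plek and Spp1, from 25.1% in Ptprc to 46.2% in Plek. None of the 7 was called by DESeq2. Summed over the 51 members, the libraries held 14084 and 29843 summed normalized counts in WT against 4515 and 6931 under the KO label. This corresponds to 0.0704% and 0.143% of the reads on genes in WT against 0.0204% and 0.0343% under the KO label. The log2 ratio of the mean sums was -1.94, and without WT replicate 2 it was -1.30. The 3 genes Lyz2, Spp1 and Sall1 made up more than the other members together in each library. Without them the sums were 6295 and 13849 in WT against 1539 and 2133 under the KO label, a mean at 18.2% of that in WT.

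The members also differed between the 2 WT libraries. Of the 49 tested, 44 were higher in WT replicate 2 than in WT replicate 1, against 52.6% of all tested genes, and the median ratio was 2.26, beside 1.02 over all tested genes. The ratio lay between 1.5 and 4 for 34 members. The 5 members that were lower in WT replicate 2 were P2ry12, Gpr34, Clec7a, Lyn and Spp1. Between the libraries labelled KO there was no such common direction, with 29 members higher in replicate 2, against 52.3% of all tested genes, and 19 lower. On the scale of normalized count + 1, 18 members were more than 2-fold higher in replicate 2 and 8 more than 2-fold lower. The former included Ptprc, Adgre1, Spp1, Spi1, Itgam, P2ry6, Lyz2, Gpnmb and Cd68, and the latter C1qa, C1qb, C1qc, Fcgr1, Fcgr3, Cd84, Ly86 and Tmem119. Many of these values rest on few reads, since 18 of the 51 members had a library labelled KO at or under 3 reads.

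**Figure D3:**
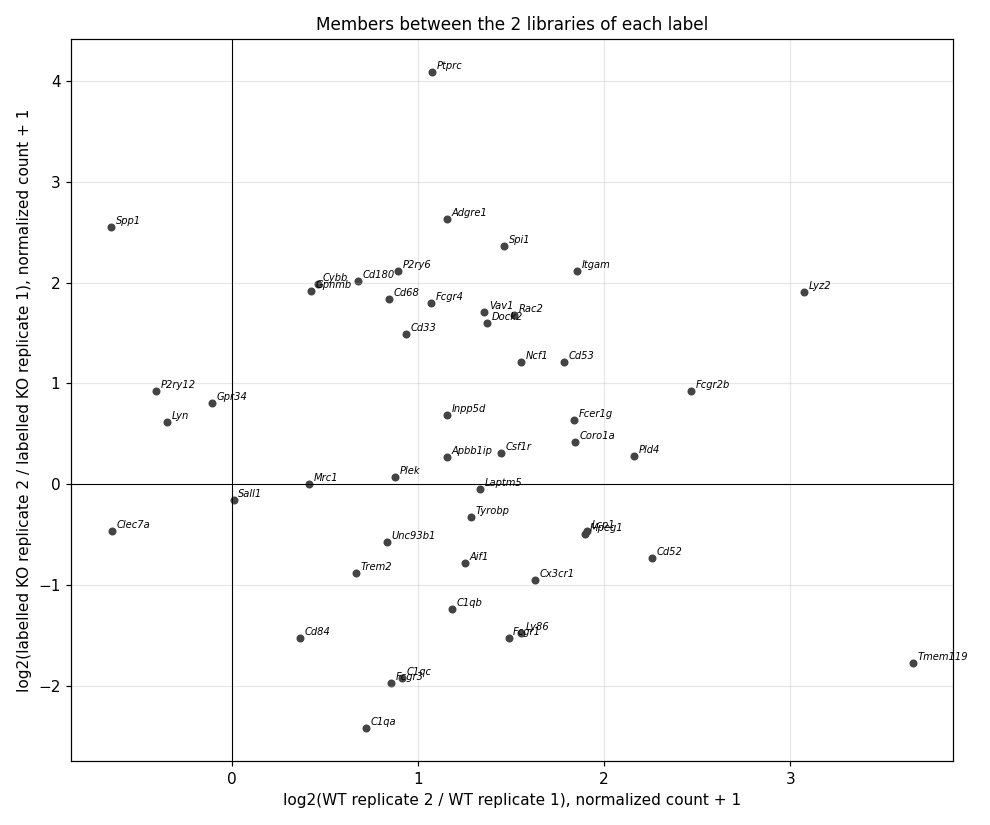
Each point is 1 of the 49 tested members, placed by the log2 ratio of WT replicate 2 to WT replicate 1 (x axis) and of labelled KO replicate 2 to labelled KO replicate 1 (y axis), both on normalized count + 1. Most points lie right of 0, as 44 members were higher in WT replicate 2, but they spread on both sides of 0 along the y axis, with the C1q chains low and Ptprc highest.

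Myeloid genes outside the list were read in the same way, and pairs of values stand for the 2 WT libraries against the 2 libraries labelled KO, in normalized counts. Of 27 genes of the pathway, 15 were lower in each library labelled KO than in either WT library, none had the reverse (25.4% and 22.5% of all tested genes), and 10 were lower at an unadjusted limma p under 0.05 (9.18% of all tested genes). DESeq2 called 7 lower (3.63% of all tested genes), and by limma and edgeR 0 reached an adjusted p under 0.05. Of the 5 ligands, 4 overlapped between the labels. Csf1 had 21259 and 24286 normalized counts in WT against 16307 and 23655 under the KO label, and Il34, the other ligand of CSF1R, had 213 and 258 normalized counts in WT against 55.7 and 309 under the KO label. Cx3cl1, the ligand of Cx3cr1, had 1654 and 4409 against 1433 and 4613, and Cd200, which binds an inhibitory receptor of microglia, had 747 and 1052 against 3129 and 376. The receptors Csf1r and Cx3cr1 were thus without overlap while their ligands were not. Among the transcription factors, Irf8, a partner of PU.1, had 85.4 and 171 normalized counts in WT against 17.1 and 3.61 under the KO label, with a log2 fold change of -3.74 (SE 0.88, limma adjusted p = 0.216). Cebpa had 188 and 185 against 56.7 and 169, without overlap, while Runx1 with 359.6 and 640.0 against 191 and 1198 overlapped. Below the ITAM receptors, 8 of 13 genes were lower without overlap, beside the same 25.4% of all tested genes. The cytoskeletal adaptor Hcls1 had 87.5 and 343 normalized counts in WT against 4.28 and 23.4 under the KO label, and Pik3ap1, an adaptor for PI 3-kinase, had 162 and 311 against 21.4 and 26.1. The kinase Syk and the phospholipase Plcg2 overlapped between the labels, with 119.5 and 272 against 102 and 163 for Syk and 81.1 and 165 against 123 and 181 for Plcg2. Cyba, the membrane partner of Cybb, had 734 and 1635 normalized counts in WT against 148 and 160.4 under the KO label and a log2 fold change of -2.82 (SE 0.47, limma adjusted p = 0.147). Ncf4, a cytosolic subunit, had 12.8 and 32.2 against 0 and 5.41, without overlap.

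Markers of other cells of the immune system were read beside the members, with values again in normalized counts, WT against the KO label. Of 4 microglial genes outside the list, Fcrls had 166 and 186 normalized counts in WT against 38.5 and 16.2 under the KO label, and it was called lower by DESeq2. Olfml3 had 649 and 537 against 452 and 57.7, and Slco2b1 had 5.33 and 6.44 against 8.56 and 0.901, the latter overlapping. Of the markers of border-associated macrophages, 6 of 7 were in the table and their sums overlapped, with 233 and 666 summed normalized counts in WT against 417 and 45.1 under the KO label. Stab1, a scavenger receptor, had 99.2 and 583 normalized counts in WT against 13.9 and 22.5 under the KO label and was called lower by DESeq2. F13a1 had 100.3 and 34 against 366 and 0.901, so that labelled KO replicate 1 was the highest library and labelled KO replicate 2 the lowest. F13a1 thus made up most of the sum of 417 in labelled KO replicate 1. With F13a1 taken away, the sum was lower in each library labelled KO than in either WT library. Cbr2 with 28.8 and 8.28 against 35.3 and 19.8 and Pf4 with 1.07 and 31.3 against 1.07 and 0.901 overlapped too, Folr2 had 3.2 and 8.28 against 0 and 0, and Cd163 had at most 1 read per library. None of 5 monocyte markers and none of 4 mast cell markers were in the table. Of 8 neutrophil markers, S100a8 had 2.13 and 30.3 against 0 and 1.8 and Camp had 2.13 and 10.1 against 0 and 0.901. Of 10 lymphocyte markers, Cd79a had 4.27 and 6.44 against 3.21 and 2.7 and Cd79b had 1.07 and 11 against 0 and 0. Of 6 dendritic cell markers, Zbtb46 had 174 and 189 against 97.4 and 48.7, and Xcr1 had 5.33 and 8.28 against 10.7 and 3.61. The part of these cells in the members' values was not tested.

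The sums for cells of other lineages overlapped between the labels, and their values are given in the same form. For astrocytes, neurons and endothelial and mural cells, the overlap rested on the largest gene, Gfap, Stmn2 and Kdr respectively. Without Kdr, the endothelial and mural sum was lower, though narrowly, in each library labelled KO than in either WT library. The oligodendrocyte and fibroblast sums still overlapped without their largest genes, Olig1 and Col1a2. These genes were picked after seeing the data. The 10 astrocyte markers had 157902 and 157126 summed normalized counts in WT against 259251 and 46837 under the KO label, and labelled KO replicate 1 was the highest and replicate 2 the lowest. Gfap had 58004 and 67297 against 174853 and 9945, and so made up most of the astrocyte sum in labelled KO replicate 1. With Gfap taken away, the astrocyte sum was lower in each library labelled KO than in either WT library. Slc1a3, a glutamate transporter, had 40855 and 43257 against 28836 and 18194. Aqp4 had 16135 and 11461 against 10259 and 3337, and Aldoc had 9482 and 6648 against 20909 and 1594. Of the 10 genes, 5 were lower without overlap and 1 was higher, beside 25.4% and 22.5% of all tested genes. The 8 oligodendrocyte lineage markers had 7314 and 11542 summed normalized counts in WT against 18307 and 10897 under the KO label. Olig1 had 5256 and 8033 against 15319 and 7074 and Olig2 had 1391 and 2289.7 against 2738 and 3406, while Pdgfra with 163 and 578 against 82.4 and 182 overlapped and Cspg4 with 329.7 and 413 against 39.6 and 128 was called lower by DESeq2. The 6 neuronal markers had 894 and 1926 summed normalized counts in WT against 2482 and 1839.6 under the KO label. Stmn2, with 824 and 1829 against 2224 and 1416, made up most of each sum. With Stmn2 taken away, the neuronal sum was higher in each library labelled KO than in either WT library. The other named genes were also higher without overlap. Tubb3 had 52.3 and 80.9 against 170.2 and 307, Syt1 had 16 and 14.7 against 23.5 and 107, and Rbfox3 had 1.07 and 0.92 against 55.7 and 1.8. Of the 5 tested neuronal genes, 4 were higher without overlap, beside 22.5% of all tested genes. DESeq2 called 1 of them, Tubb3, higher, beside 1.29% of all tested genes. The 5 markers of meningeal fibroblasts had 387 and 1732 summed normalized counts in WT against 1953 and 1558 under the KO label. Col1a2 had 283 and 764 against 1568 and 987, Col1a1 had 61.9 and 699.8 against 291 and 489, Col3a1 had 2.13 and 222 against 87.8 and 68.5 and Dcn had 36.3 and 43.2 against 6.42 and 10.8. The 4 endothelial and mural markers in the table had 109 and 206 summed normalized counts in WT against 271 and 77.5 under the KO label. Kdr had 68.3 and 149 against 248 and 37.9, Rgs5 had 37.3 and 45.1 against 12.8 and 14.4, Cdh5 had 0 and 4.6 against 7.49 and 21.6 and Pecam1 had 3.2 and 7.36 against 2.14 and 3.61. The part of these cell types in the members' values was not tested.

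**Figure D4:**
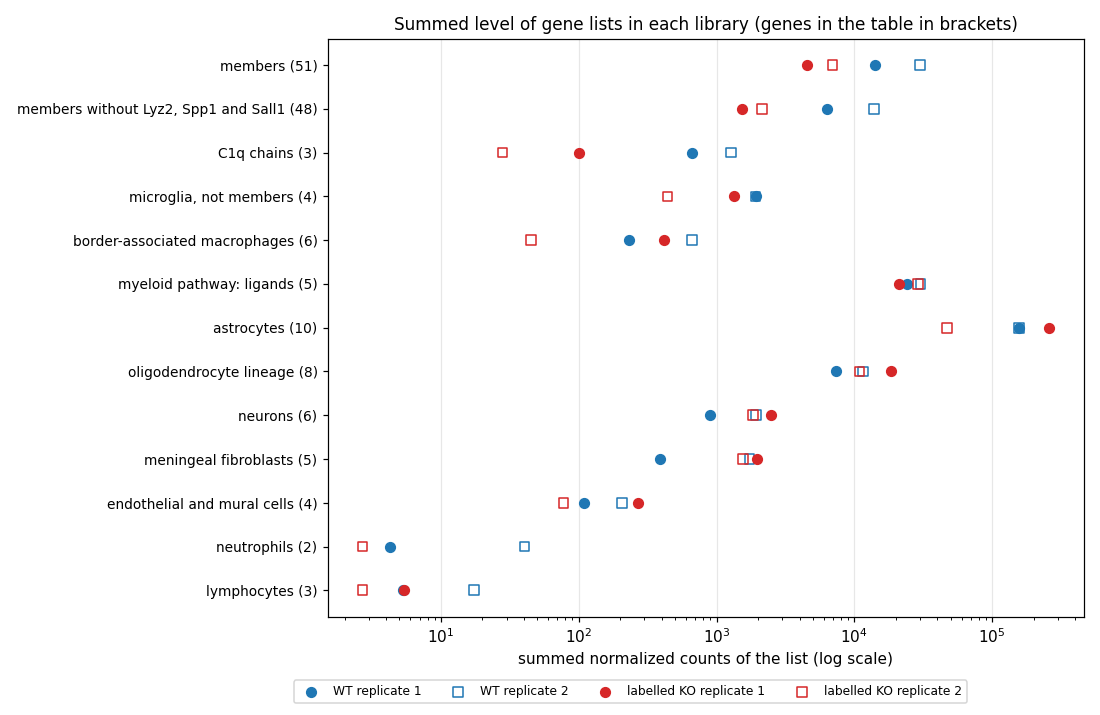
Summed normalized counts (x axis, log scale) of lists of genes (y axis, genes in the table in brackets) in each library, WT in blue and labelled KO in red, replicate 1 as filled circles and replicate 2 as open squares; a sum of 0 (neutrophils, labelled KO replicate 1) cannot be drawn. Both red points lie left of both blue points for the member sums, with and without Lyz2, Spp1 and Sall1. The C1q chains and the microglial genes outside the list show the same order, as do the neutrophil sums, which rest on few reads. The border-associated macrophage, ligand, astrocyte, oligodendrocyte, neuronal, fibroblast, endothelial and lymphocyte sums overlap. In labelled KO replicate 1, F13a1 made up most of the border-associated macrophage sum and Gfap most of the astrocyte sum. Without these genes (not drawn), both sums were lower in each library labelled KO than in either WT library. The endothelial and mural sum without Kdr was narrowly lower in the same way, and the neuronal sum without Stmn2 was higher.

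The members lie on 19 chromosomes, and 2 of them, Cybb and Gpr34, on X. The promoters of the members were searched for GAGGAAGT, an element of the kind bound by PU.1, on both strands. RefSeq sequences on GRCm38.p6, from 250 bases before to 50 bases after the transcription start, were matched by symbol for 40 of the 52 members, Siglech included. These genes had 49 such windows, as some have several starts. The element was in 8 windows, of 8 genes (16.3% of the windows), against 3.2% of the 32851 windows of all genes. Its first letters, GAGGAA, were in 28 windows (57.1%), against 28.3%. The AP-1 element TGACTCA was in 4 (8.16%), against 5.2%, and the letters TATAAA were in 4 (8.16%), against 13.6%. These counts describe letters in a window and not binding. They use no expression values and come from a list picked as genes of myeloid cells. A link of the element to the difference between the labels was not tested. The 8 genes were Apbb1ip, C1qc, Cd53, Fcgr4, Inpp5d, Pld4, Spp1 and Vav1, with log2 fold changes from -4.30 in Pld4 to -1.66 in Fcgr4. Each was lower without overlap between the labels, as were 45 of the 49 tested members and 25.4% of all tested genes. In 5 of the 8 genes the element lay before the start. Their 200 bases before the transcription start are shown, 5′ to 3′ on the strand of the gene, to compare where the element lies, with GAGGAAGT or its reverse complement in capitals. They are chr4:136892915-136893114 (minus strand) for C1qc, chr1:171018726-171018925 for Fcgr4, chr1:87620112-87620311 for Inpp5d, chr5:104434911-104435110 for Spp1 and chr17:57278900-57279099 for Vav1 (plus strand for the last 4).
C1qc: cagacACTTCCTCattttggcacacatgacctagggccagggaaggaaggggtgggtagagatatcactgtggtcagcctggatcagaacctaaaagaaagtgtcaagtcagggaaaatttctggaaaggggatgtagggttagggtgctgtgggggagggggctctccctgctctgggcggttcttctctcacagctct
Fcgr4: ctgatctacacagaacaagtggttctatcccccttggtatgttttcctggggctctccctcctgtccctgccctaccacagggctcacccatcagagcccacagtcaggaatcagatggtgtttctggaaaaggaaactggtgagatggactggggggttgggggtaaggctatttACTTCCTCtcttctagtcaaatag
Inpp5d: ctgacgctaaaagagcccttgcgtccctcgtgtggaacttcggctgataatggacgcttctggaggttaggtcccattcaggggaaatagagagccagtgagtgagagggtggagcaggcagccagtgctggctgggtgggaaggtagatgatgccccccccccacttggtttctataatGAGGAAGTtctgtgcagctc
Spp1: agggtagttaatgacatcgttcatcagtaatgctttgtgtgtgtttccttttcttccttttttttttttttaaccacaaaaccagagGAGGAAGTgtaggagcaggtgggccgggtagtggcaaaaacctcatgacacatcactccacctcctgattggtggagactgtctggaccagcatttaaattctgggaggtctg
Vav1: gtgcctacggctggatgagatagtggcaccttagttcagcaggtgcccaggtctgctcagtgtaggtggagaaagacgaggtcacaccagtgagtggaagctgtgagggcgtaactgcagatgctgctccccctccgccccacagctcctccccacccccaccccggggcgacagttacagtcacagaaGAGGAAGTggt

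The leftmost base of the element as printed lies 195 bases before the transcription start in C1qc, 113 in Spp1, 24 in Fcgr4, 20 in Inpp5d and 11 in Vav1. It runs on the strand of the gene in Inpp5d, Spp1 and Vav1 and on the other strand in C1qc and Fcgr4. Among these 5 genes, the share of the WT mean that was left in the libraries labelled KO was 6.48% for C1qc, 8.51% for Vav1, 15.7% for Inpp5d, 32.2% for Fcgr4 and 35.5% for Spp1.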

How the data were processed

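RNA-seq was done on 4 libraries of cultured mouse astrocytes, 2 labelled WT and 2 labelled Tet1 KO, grouped by the sample titles. Paired-end reads were quality-filtered and mapped by the authors to the mm10 genome. The program that counted reads, the annotation and the strand setting are not given in the sources used here. The deposited signal values, 1 for each gene in each library, are each a read count divided by a size factor and not corrected for length. All values (100%) equalled a whole number of reads within 0.01 reads, so whole reads were recovered. The table's own means, fold changes and p-values, which compare the genotypes, were not used. The other column used was gene length.

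Genotypes were compared with limma 3.58.1 (lmFit, eBayes with a variance trend) in R 4.3.3 on log2(normalized count + 1), over genes averaging 1 or more, and p-values were adjusted by Benjamini and Hochberg's method. This scale understates the change of low genes. Alternatives were edgeR 4.0.16 (quasi-likelihood), DESeq2 1.42.0, a pseudocount of 0.1, a mean of at least 5 or no filter, 3 scalings, no trend, a replicate block and leaving out each library. With 2 libraries against 2, the smallest two-sided p of an exact permutation test on a single gene is 0.33. FPKM was computed from recovered reads, gene length and reads on genes. The fits were checked on simulated counts. Libraries of 1 label differed by more than sampling noise (median chi-square per gene 8.04 in WT and 27.1 in the libraries labelled KO, against 0.45), so none were merged as 1 sample, which does not show separate isolations. Gene positions come from the deposited table, and 49 of the 51 members had the same start and end in GENCODE M21, from which overlapping genes were taken. The members and all lists were chosen with earlier results of these data known. By the naming rule every member is named, as are the genes of the microglia and border-associated macrophage lists, Tet1, Xist and up to 4 genes of each other list with the highest mean, apart from some that are not reported here. The floor of 3 reads covers counting error only, while the SDs and SEs come from the spread between libraries. Plots were made with Python 3.11.15 and matplotlib 3.10.9.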

Additional observations from a re-analysis of the deposited data

How the results depend on the processing

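Limma called 0 members at an adjusted p under 0.05, as did edgeR and every limma alternative but 1. DESeq2 called 34. Libraries with the same replicate number did not deviate together: their deviations correlated at -0.08 across the 22094 tested genes and at -0.11 across the 12868 genes averaging 50 or more, and the labels name no pairing. With the replicate block, 0 members passed the adjusted threshold and 38 were lower at an unadjusted p under 0.05, with the median at -3.38. With the replicate numbers crossed, a setting chosen after seeing the data, 8 and 43 members did so. Leaving out each library in turn gave 11 to 35 members lower at an unadjusted p under 0.05, 45 to 46 members without overlap, medians of -3.99 to -2.59 and log2 ratios of the summed level of -2.38 to -1.30. A separation of the labels always remains when a library is removed, so the number without overlap could not fall under 45 there. That number is therefore no test of the separation. Under the 3 scalings, 41 to 45 members were without overlap. The median was -2.90 after quantile normalization, which moved the median of all genes to 0.06. Of 732 values of single members under 15 settings, 1 had the opposite sign, that of Tmem119 without WT replicate 2; its log2 fold change ranged from -2.94 to 0.72 as each library was left out, and the cause was not tested. The sum without Lyz2, Spp1 and Sall1, chosen after seeing the data, gave a log2 ratio of -2.46. Depth limits the members at or under 3 reads, where 1 read decides a ratio.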
